A study of Mus musculus with 6 samples.

Results

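The genes described here are 8 components of cytosolic DNA sensing: Cgas, Sting1, Tbk1, Ikbke, Trex1, Zbp1, Ddx41 and Enpp1. They were taken by name from the 55357 genes of the expression table, by a rule that sets no threshold on their values, and all 8 were expressed highly enough to be tested. RNA-seq was performed on cultured mouse cortical astrocytes in 2 groups of 3 cultures. The KE cultures had been transfected with a plasmid in which the CMV promoter drives FLAG-tagged BRAF KE (K499E), a mutant form of the kinase BRAF that overactivates RAS-ERK signaling, and the NT cultures were naive and nontransfected. All were primary cultures of the cortex of late C57BL/6 mouse embryos, and KE cells were harvested 48 hours after transfection. The protocol text on the NT samples repeats that of the KE samples, transfection included, so NT is taken as nontransfected from its titles and treatment labels, and its own harvest time is not given in the sources used here. The CMV promoter is not specific to one cell type. By those labels only the KE group received plasmid DNA, so delivery of DNA and expression of BRAF KE cannot be told apart here, and cultures with an empty plasmid or BRAF WT are not analysed here. Nothing in the labels says that replicates came from separate animals, so p-values measure the spread between these cultures, which may be partly technical.

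In this pathway, double-stranded DNA in the cytosol binds cyclic GMP-AMP synthase (cGAS, encoded by Cgas), which makes the second messenger cGAMP. cGAMP binds STING in the membrane of the endoplasmic reticulum, STING moves to the Golgi and recruits the kinase TBK1 or its relative IKKε, and phosphorylated IRF3 then enters the nucleus and turns on interferon beta. TREX1 degrades cytosolic DNA before cGAS can bind it, ENPP1 hydrolyzes cGAMP outside the cell, and ZBP1 and DDX41 are further nucleic acid sensors. In brain, cGAS and STING are best known from microglia, and astrocytes respond strongly to the interferon that follows.

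The 8 genes did not move together. Zbp1 and Trex1 rose in KE, Sting1 and Enpp1 fell, and Cgas, Tbk1, Ikbke and Ddx41 did not pass the test. The values are the authors' normalized counts, that is, gene counts divided by a size factor for each culture, and log2FC is the difference of mean log2(normalized count + 1), KE minus NT, fitted with limma. A gene was called when its adjusted p was below 0.05. Of the 15280 genes tested, 51.3% were called, with 25.3% higher and 26% lower in KE, and the 2 higher and 2 lower calls among 8 members are to be read against those shares. For 5 of the 8 members the groups did not overlap, against 59.9% of all tested genes. The median log2FC was -0.08 over the 8 members and 0.0018 over all tested genes. With 3 cultures against 3, no exact two-sided permutation test on 1 gene can reach a p below 0.1, so the tests rest on limma's fit across all genes.

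**Figure D1:**
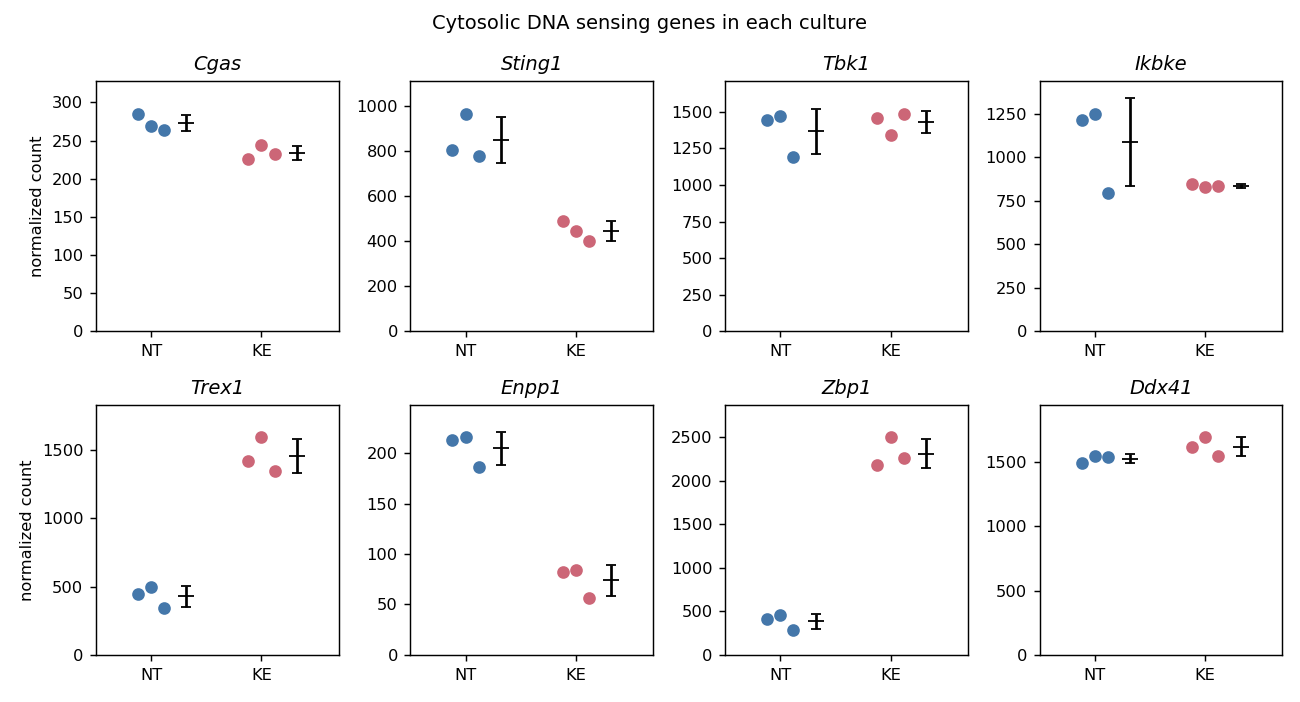
Normalized counts (vertical axes, from 0) of the 8 genes in the 3 NT and 3 KE cultures, in order of replicate number; points are cultures, and black marks are the mean ± SD (n = 3). Zbp1 and Trex1 were higher in every KE culture, Sting1, Enpp1 and Cgas were lower in every KE culture, and the groups overlapped for Tbk1, Ikbke and Ddx41.

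Facts of the cultures bear on these values. Braf, the transfected gene, had a log2FC of 5.37 and no overlap between the groups. Approximate depth was 24489700 to 34146300 reads per culture. All 10 astrocyte markers examined were tested, with 7 higher, 1 lower (Gja1, log2FC -0.46) and 2 not called and a median log2FC of 0.40. Their summed normalized count was 194523 to 200354 in KE and 142105 to 150693 in NT, although S100b was at most 32. Markers of microglia and macrophages were far lower in KE: 14 of the 15 were tested and all 14 fell, with a median log2FC of -3.34. Their summed normalized count was 5172 to 7224 in KE and 44540 to 52512 in NT, and only Siglech was at 0 throughout. All 7 tested oligodendrocyte lineage markers also fell, with a median log2FC of -0.55. The endothelial marker Cldn5 and the oligodendrocyte marker Mog were at or near 0. In bulk RNA, fewer cells of a type and less RNA per cell cannot be told apart.

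Zbp1 (ENSMUSG00000027514; chromosome 2 of GRCm39, 173033815 to 173060724, minus strand) had the largest change of the 8. It encodes Z-nucleic acid-binding protein 1, an interferon-inducible sensor that can start necroptosis through RIPK3. Normalized counts of Zbp1 in replicates 1, 2 and 3 were 2175, 2498 and 2257 in KE and 415, 459 and 291 in NT. Every KE culture lay well above every NT culture. KE averaged 2310 ± 168 (SD, n = 3) against 388 ± 87.1 (SD, n = 3), 5.95 times the NT mean. Its log2FC of 2.59 had a standard error of 0.14 (limma, adjusted p = 1.2e-07).

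Trex1 (ENSMUSG00000049734; chromosome 9, 108887001 to 108888802, minus strand) encodes the main exonuclease of cytosolic DNA, whose loss in mice and people leads to cGAS-driven interferon disease. Trex1 normalized counts were 1421, 1593 and 1350 in KE and 444, 500 and 345 in NT, again with a wide gap between the groups. KE averaged 1455 ± 125 (SD, n = 3) against 430 ± 78.2 (SD, n = 3), 3.39 times the NT mean. The log2FC of 1.77 had a standard error of 0.12 (limma, adjusted p = 7.2e-07). In the Gencode vM39 annotation, exons of Atrip on the same strand cover 100% of the exons of Trex1, so reads could be divided between the 2 genes. Atrip, which encodes a partner of the DNA damage kinase ATR, averaged 630 ± 1.77 (SD, n = 3) with KE against 612 ± 26.1 (SD, n = 3) without, and had a log2FC of 0.04 (95% confidence interval -0.13 to 0.21). On the opposite strand, Shisa5 shares 29 bases with Trex1, or 2.53% of its exons. The mean normalized count of Shisa5 was 8914 in KE and 4322 in NT, so this neighbour was more abundant than Trex1 and also higher in KE, and its part in the Trex1 values was not tested.

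The adaptor and the extracellular hydrolase of cGAMP were both lower in KE. Sting1 (ENSMUSG00000024349; chromosome 18, 35866732 to 35873607, minus strand) encodes STING, the receptor for cGAMP. STING transcripts were at normalized counts of 490, 444 and 402 in KE and 803, 964 and 775 in NT. The highest KE culture was still far below the lowest NT culture. KE averaged 445 ± 44.1 (SD, n = 3) against 847 ± 102 (SD, n = 3), so that NT was 1.90 times KE. The log2FC of -0.92 had a standard error of 0.11 (limma, adjusted p = 3.3e-05).

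Enpp1 (ENSMUSG00000037370; chromosome 10, 24513812 to 24588057, minus strand) was the least abundant of the 8 genes. Normalized counts of Enpp1 were 82.0, 84.0 and 56.3 in KE and 213, 216 and 186 in NT. The groups were again separate, with KE replicate 3 the lowest. KE averaged 74.1 ± 15.4 (SD, n = 3) against 205 ± 16.3 (SD, n = 3). The log2FC of -1.48, the larger of the 2 falls, had a standard error of 0.18 (limma, adjusted p = 4.6e-05). Both falls occurred in the cultures with low microglia and macrophage markers, and the part of those cells in either fall was not tested. The fall of Sting1, to 0.525 of the NT mean, and that of Enpp1, to 0.361, were smaller than the median change of those markers.

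Cgas (ENSMUSG00000032344; chromosome 9, 78337802 to 78350535, minus strand), the sensor itself, was expressed at a low level in both groups. Normalized counts of Cgas were 226, 244 and 232 in KE and 285, 269 and 264 in NT. All KE values were below all NT values, by a small margin. The log2FC was -0.22 (95% confidence interval -0.45 to 0.01, adjusted p = 0.0999 from limma). Without the variance trend the same log2FC had an adjusted p of 0.033 from limma. Under quantile normalization the log2FC was -0.12, with an adjusted p of 0.33 from limma. In vM39 the antisense transcript Gm68924, which is not used here, covers 34.4% of the exons of Cgas. The library kit keeps the strand, but the strand setting of the counting is not given in the sources used here.

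The paralogous kinases downstream of STING did not pass the test. Tbk1 (ENSMUSG00000020115; chromosome 10, 121382360 to 121422848, minus strand), the kinase that phosphorylates STING and IRF3, was at 1455, 1342 and 1488 in KE and 1441, 1471 and 1192 in NT. Apart from NT replicate 3, the cultures of both groups covered the same range. The log2FC was 0.07 (95% confidence interval -0.13 to 0.26), and without NT replicate 3 it was -0.03.

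Ikbke (ENSMUSG00000042349; chromosome 1, 131182080 to 131207346, minus strand) encodes IKKε, which shares many substrates with TBK1. Its normalized counts were 846, 828 and 832 in KE and 1216, 1250 and 797 in NT. The KE cultures were nearly identical, while NT replicate 3 fell below all of them and the other NT cultures lay far above. The log2FC was -0.35 (95% confidence interval -0.67 to -0.04, adjusted p = 0.060 from limma). Leaving out NT replicate 3 changed the call, with a log2FC of -0.56 and an adjusted p of 1.7e-04 from limma. Per kilobase of transcript, Ikbke averaged 0.519 ± 0.026 (SD, n = 3) of Tbk1 under KE against 0.697 ± 0.091 (SD, n = 3) under NT, and the lowest NT ratio, 0.592 in replicate 3, was above the highest KE ratio, 0.546.

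Ddx41 (ENSMUSG00000021494; chromosome 13, 55677137 to 55684507, minus strand), a DEAD-box helicase of the spliceosome that has also been proposed as a DNA sensor, had the smallest standard error of log2FC of the 8 (0.06). Its normalized counts were 1618, 1690 and 1544 in KE and 1489, 1548 and 1541 in NT, and the groups overlapped. The log2FC was 0.08 (95% confidence interval -0.05 to 0.22, adjusted p = 0.29 from limma).

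**Figure D2:**
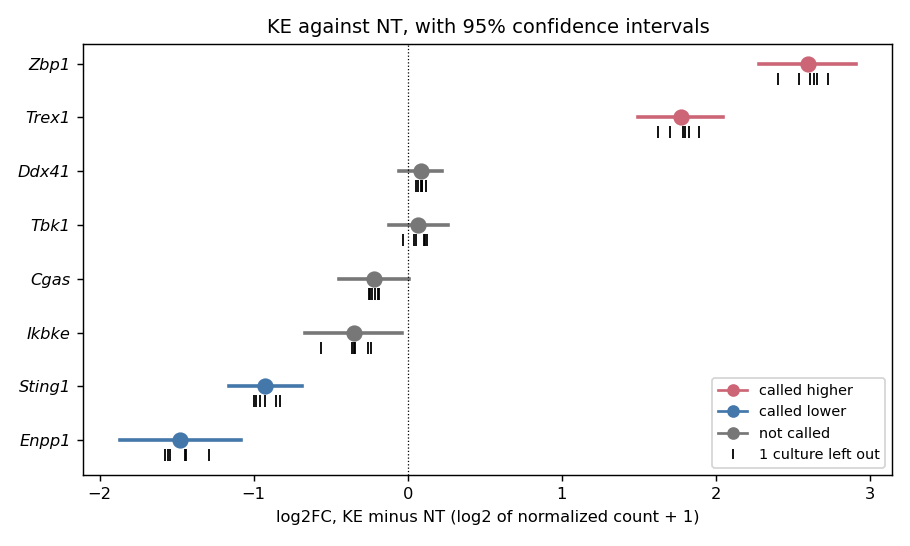
Log2FC (horizontal axis, KE minus NT) of the 8 genes with 95% confidence intervals from limma; black ticks are the values with each of the 6 cultures left out in turn. Zbp1 (2.59) and Trex1 (1.77) lie to the right of 0 and Sting1 (-0.92) and Enpp1 (-1.48) to the left in all ticks, while Tbk1 has 1 tick below 0 and the ticks of Ikbke run from -0.56 to -0.24.

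To compare levels between genes, normalized counts were divided by the length of the Ensembl canonical transcript. Per kilobase, the order in NT was Ddx41 (681 ± 14.3, SD, n = 3), Tbk1 (443 ± 49.8), Trex1 (406 ± 73.8), Sting1 (368 ± 44.2), Ikbke (312 ± 72.5), Zbp1 (194 ± 43.6), Cgas (66.6 ± 2.67) and Enpp1 (30.3 ± 2.41). From Tbk1 down to Zbp1, each gene overlapped with the next one in that order. In KE, Trex1 (1374 ± 118) and Zbp1 (1157 ± 84.0) stood above Ddx41 (722 ± 32.7), and then came Tbk1 (463 ± 24.7), Ikbke (240 ± 2.68), Sting1 (194 ± 19.2), Cgas (57.1 ± 2.27) and Enpp1 (10.9 ± 2.28). No neighbours in the KE order overlapped. With the length of all annotated exons in place of the canonical transcript, Trex1 came first in NT as well, Tbk1 ranked below Sting1 there, and Sting1 and Ikbke changed places in KE.

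The per-kilobase level of Trex1 was 24.0 ± 1.38 (SD, n = 3) times that of Cgas in KE and 6.09 ± 1.07 (SD, n = 3) times in NT. Sting1 stood at 0.419 ± 0.050 (SD, n = 3) of Tbk1 under KE against 0.833 ± 0.074 (SD, n = 3) under NT. For both ratios, no KE culture reached an NT culture. For Trex1 and Cgas this follows from the separate groups of each gene. The ratios restate the values of the single genes, of which Cgas and Tbk1 were not called. In transcript levels, the nuclease stood higher over the sensor in KE, and the adaptor lower against the kinase it recruits.

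**Figure D3:**
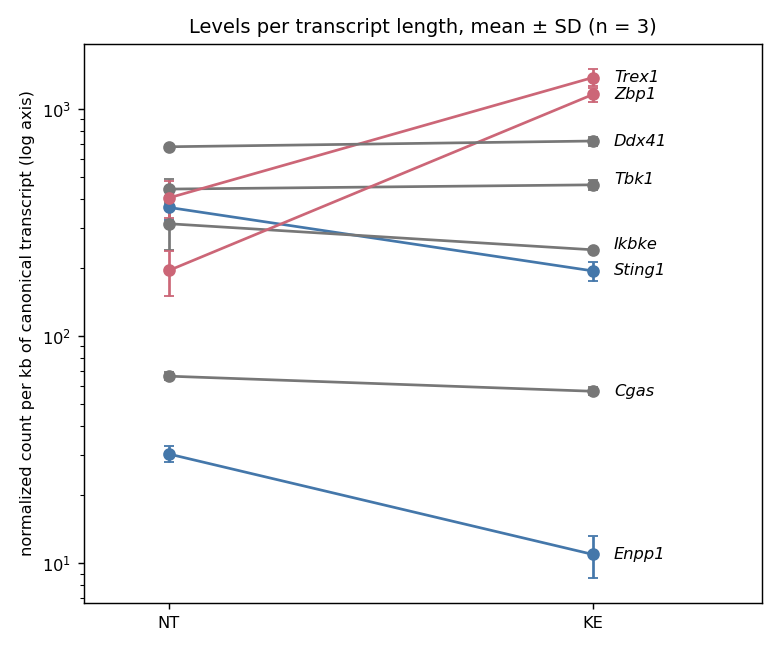
Normalized count per kilobase of canonical transcript (log axis) in NT and KE for the 8 genes; points are means and bars are the SD (n = 3), with genes called higher in red, called lower in blue and not called in gray. Zbp1 went from 194 to 1157 and Trex1 from 406 to 1374, while Cgas and Enpp1 stayed at the bottom of the order in both groups.

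Within the NT group, replicate 3 had the lowest value for 7 of the 8 genes, all but Ddx41. It was also the lowest NT culture for 8 of the 9 pathway outputs listed below and for 13 of the 15 microglia and macrophage markers, and for 4890 of all 15280 tested genes. Relative to the NT mean, the log2 values of NT replicate 3 were -0.45 for Ikbke, -0.42 for Zbp1 and -0.31 for Trex1, and -0.57 for the summed outputs. The summed outputs ranged from 7707 to 14322 in NT and from 129530 to 130634 in KE, and Ifit3 contributed the largest normalized count to the KE sums (mean 52313). For Enpp1 the log2 values were spread more widely in KE (-1.86 to -1.29) than in NT (-0.14 to 0.07), where replicate 3 was also lowest.

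**Figure D4:**
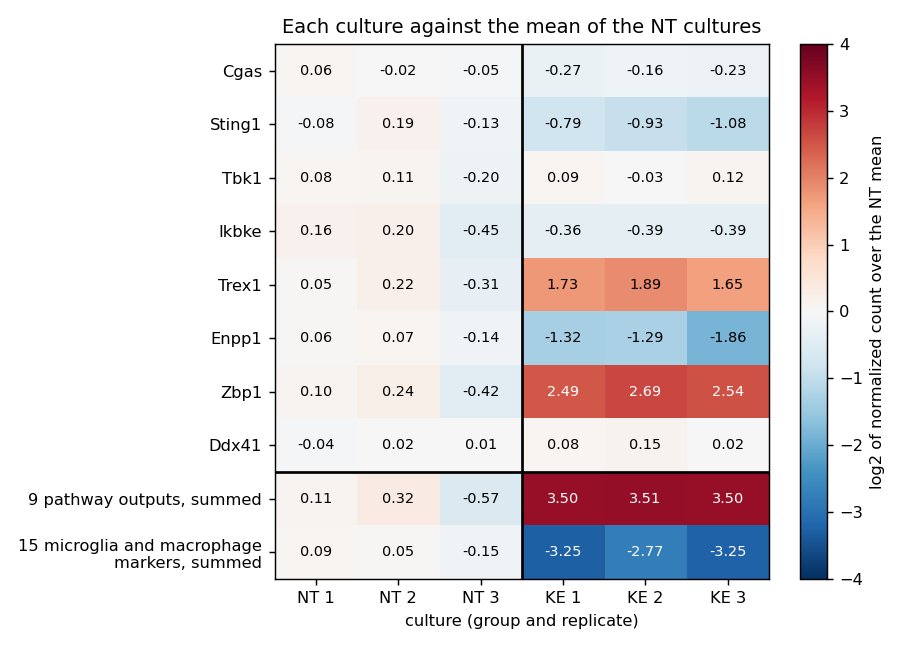
Log2 of the normalized count over the NT mean (color and printed value) for the 8 genes, the summed 9 pathway outputs and the summed 15 microglia and macrophage markers, in each culture. Zbp1 and Trex1 share the direction of the outputs in every KE culture, and Sting1, Enpp1, Cgas and Ikbke that of the markers, though Cgas and Ikbke were not called, and NT replicate 3 is below the NT mean for all rows but Ddx41.

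The genes whose profile over the 6 cultures lay closest to a member were found by Euclidean distance of log2(normalized count + 1) from the NT mean. For Zbp1 they were Apol9b (distance 0.10), Slc7a3 (0.18) and Oas1b (0.22). For Trex1 they were Ifi35 (0.11), the class I MHC gene H2-K1 (0.20) and Uba7 (0.21). Those of Enpp1 were Pstpip1 (0.16), Pvalb (0.30) and H19 (0.31). Apol9b, Oas1b and H2-K1 belong to families of similar genes that can share reads. Since so many genes differed between the groups, the distance is set largely by the size of the KE to NT difference.

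The rest of the pathway was examined as 8 lists with 85 genes, of which 82 were tested. In all, 30 were higher and 19 lower in KE, with a median log2FC of 0.08. These counts and those of the lists below are to be read against the 25.3% higher and 26% lower among all tested genes. Among 18 other DNA sensors and cofactors, only Ifi204 was called higher (log2FC 2.29), and 8 were lower. Ifi204 encodes the mouse relative of the human sensor IFI16 and has near-identical neighbours, so its reads are uncertain. Its normalized counts were 3633, 3628 and 4158 in KE and 866, 903 and 593 in NT. Aim2, which starts the inflammasome on DNA, was the lowest of the list, at 29.7, 17.2 and 27.0 in KE and 149, 204 and 157 in NT (log2FC -2.76). Hmgb1, a chromatin protein that bends DNA and helps cGAS, had a log2FC of -0.92, and the helicase Dhx9 had one of -0.54.

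Of 11 genes of nucleases and nucleic acid metabolism, 9 were tested, 1 rose and 6 fell, and the median log2FC was -0.55. The gene that rose was Adar (1.02), whose product edits double-stranded RNA. The falls were led by Pld4 (-3.12), an exonuclease of endolysosomes in myeloid cells, Banf1 (-0.86), which covers DNA and keeps cGAS from it, and Rnaseh2c (-0.73), a subunit of ribonuclease H2.

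Of 11 genes that transport or hydrolyze cyclic dinucleotides, 10 were tested, and 3 were higher and 0 lower in KE. Their median log2FC was 0.10. Lrrc8a (0.53), the common subunit of the volume-regulated channels that pass cGAMP, the exporter Abcc1 (0.46) and Smpdl3a (0.31), which degrades cGAMP, were the genes called. All 10 genes of STING trafficking and turnover were tested, with 4 higher, 0 lower and a median of 0.13. Wipi2 (0.49) and Atg9a (0.34) act in autophagy, Stim1 (0.41) retains STING in the endoplasmic reticulum, and Copa (0.16) returns it there from the Golgi, although the call of Copa was lost without KE replicate 1 or 3, or NT replicate 1 or 3.

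Among 12 regulators that modify or restrain cGAS and STING, 6 were higher and 3 lower, with a median log2FC of 0.19. Usp18 (2.82), which removes ISG15 and damps the interferon receptor, and Trim30a (2.16), a ubiquitin ligase that promotes STING degradation, had the largest rises. Trim30a has close paralogs, so its reads are uncertain. Nlrc3 (-1.01), which holds back STING and is expressed in lymphoid and myeloid cells, and Rnf26 (-0.51) were lower. Among 9 adaptors and substrates of TBK1 and IKKε, 6 were higher and 0 lower, with a median of 0.45.

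Irf7 was at 21714, 24490 and 22212 in KE and 1661, 2123 and 1215 in NT, and its log2FC was 3.81 (limma, adjusted p = 1.8e-08). Irf3 was at 654, 819 and 695 in KE and 782, 858 and 883 in NT. Its log2FC of -0.22 did not pass the test (adjusted p = 0.073 from limma). Without KE replicate 2 it was -0.32 and was called (adjusted p = 0.014 from limma). Without KE replicate 1 it was -0.15 and was not called (adjusted p = 0.25 from limma). IRF3 is made in most resting cells, whereas IRF7 is itself an interferon-induced factor. The autophagy receptors Sqstm1 (1.48) and Optn (0.46), which TBK1 phosphorylates, and the adaptor Tbkbp1 (0.48) rose.

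ZBP1 acts through RIPK3 and MLKL. Of 5 partners, Mlkl rose, at 1281, 1276 and 1343 in KE and 306, 337 and 264 in NT (log2FC 2.11). Ripk3, the kinase between ZBP1 and MLKL, was low, at 189, 123 and 143 in KE and 170, 152 and 138 in NT, with a log2FC of -0.04 (95% confidence interval -0.41 to 0.34). Ripk1 had a log2FC of -0.07 and was not called. Fadd was called lower (-0.22), but the call was lost on leaving out KE replicate 2 or 3 or any 1 of the 3 NT cultures, with adjusted p from limma between 0.048 and 0.11 over the 6 fits.

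**Figure D5:**
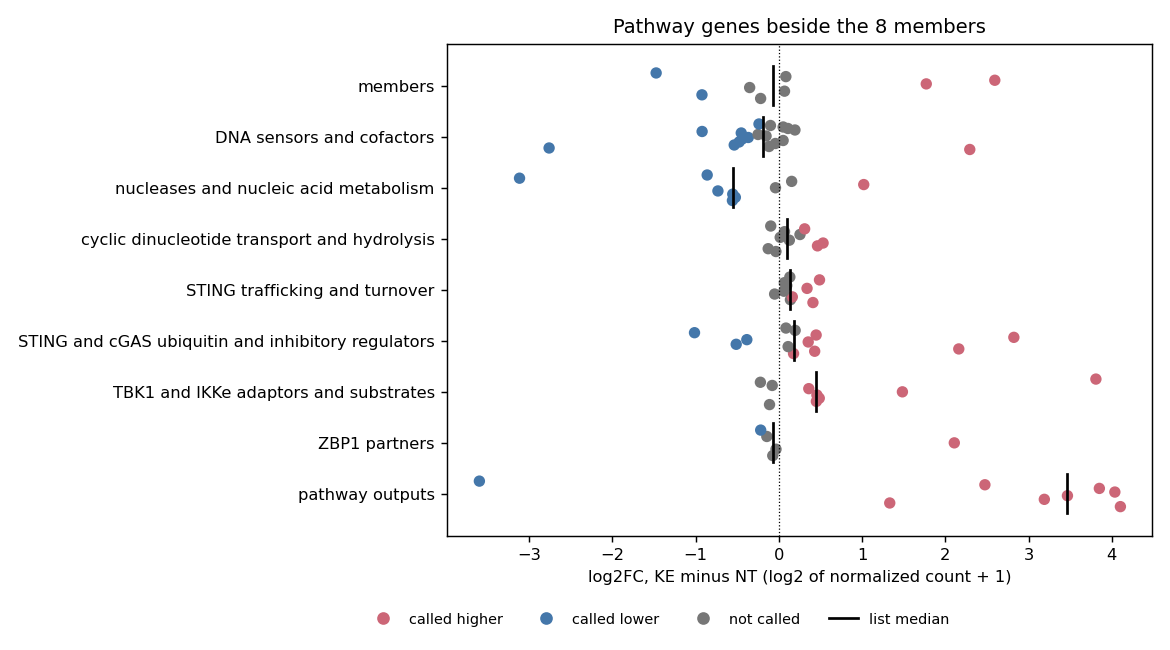
Log2FC (horizontal axis, KE minus NT) of the 8 members and of the tested genes of the 8 pathway lists; points are genes, colored by call, and black lines are list medians. Ifnb1, which is listed at 0 in NT, counts in its list's median of 3.47 but is not drawn; the medians of the adaptor (0.45) and output lists lie to the right of 0, with Tnf far to the left among the outputs, and the nuclease list has its median at -0.55.

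All 9 genes listed as pathway outputs were called, 8 higher and 1 lower, with a median log2FC of 3.47. The list does not make them particular to this pathway, and which sensor or signal changed them was not tested. Ifnb1, the interferon that IRF3 turns on, was at 233, 198 and 235 in KE and is listed at 0 in the 3 NT cultures. It therefore passed the expression filter through KE alone. Cxcl10 had a log2FC of 4.10, Ifit3 one of 4.04 and Rsad2 one of 3.85. Tnf, named after its values were seen as the exception of the list, was lower, at 54.2, 35.0 and 51.6 in KE and 713, 852 and 305 in NT (log2FC -3.60). Tnf is made chiefly by microglia in brain, and it fell in the cultures with low microglia and macrophage markers, whose part was not tested.

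Promoter sequences were compared because Zbp1 and Trex1 followed the interferon-induced outputs. The 250 bases upstream of a RefSeq start (RefSeq, GRCm38.p6 table) were searched on both strands for GAAA, any 2 bases and GAAA again, the core of the interferon-stimulated response element, and for TTCNNNGAA, the palindromic gamma-activated site. A match to the first was present in 2.98% of 32851 promoters and a match to the second in 7.02%. Of the members, 6 had an entry, with 7 start sites among them, and none of the 7 windows contained either motif. Zbp1 and Sting1 were not searched. Both windows of Trex1 overlap annotated exons of Atrip, so the search says little about the genes that prompted it. For Enpp1, whose window lies outside annotated exons at chr10:24588058-24588307 of GRCm39 (minus strand), the window is shown as the upstream sequence of a member that fell, with no capitals because neither motif was found:
Enpp1: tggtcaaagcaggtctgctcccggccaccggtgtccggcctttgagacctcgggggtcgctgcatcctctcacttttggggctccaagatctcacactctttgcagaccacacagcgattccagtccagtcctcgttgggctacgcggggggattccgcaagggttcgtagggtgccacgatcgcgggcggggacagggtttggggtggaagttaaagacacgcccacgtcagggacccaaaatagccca

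Among the 85 pathway genes, 69 had a promoter entry and 7 of these (10.1%) held the first motif, namely Cxcl10, Ifit1, Ifit3, Isg15, Rsad2, Trim30a and Pld3. Apart from Pld3, all of these were called higher in KE. All except Trim30a and Pld3 come from the output list, which was chosen with earlier results known. Motif and call occurring together is therefore a description of that choice of genes, and no link between them was tested. The second motif was present in 5 of the 69 (7.25%). These shares count genes, which can have several windows, whereas the shares of all promoters count single windows, so the measures are not the same. One site each of 4 of them is printed to show the letters that were matched, where Ifit3 holds 2 matches and Isg15 holds 3 that overlap, of which the middle one is in capitals, read along the strand of the gene with the motif or its reverse complement in capitals. The site of Cxcl10 lies at chr5:92496944-92496969 on the minus strand of GRCm39, that of Rsad2 at chr12:26506554-26506579 on the minus strand, that of Ifit3 lies at chr19:34560765-34560790 on the plus strand, and that of Isg15 at chr4:156285330-156285355 on the minus strand:
Cxcl10: acgctttgGAAAGTGAAActtacctc
Rsad2: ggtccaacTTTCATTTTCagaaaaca
Ifit3: gtggtaagTTTCACTTTCctcttctg
Isg15: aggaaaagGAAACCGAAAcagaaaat
A match describes these letters only, and its absence from the windows of the members says nothing of sites elsewhere.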

How the data were processed

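RNA was sequenced from 3 KE and 3 NT astrocyte cultures, mRNA libraries being made with a stranded kit per the labels. The submitters' processing notes name Trim Galore, STAR, Salmon and DESeq2. They name the human build GRCh38, whereas the gene identifiers are those of mouse, and the study's methods name GRCm39 with Gencode vM28 for its mouse RNA-seq. The deposited values are a signal scale, gene counts divided by size factors by the authors. Whole reads were not recovered, since only 74.6 to 77.5% of low values were whole multiples of 1 read (within 0.1), so no count model was used and depth is approximate. Batches are mentioned in the methods but not named, so none could be fitted.

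Genes with a mean normalized count of at least 10 (15280 of 55357) were fitted as log2(normalized count + 1) with limma 3.58.1 (R 4.3.3) and a variance trend, group being the only term. Tests were two-sided with Benjamini-Hochberg adjustment over all tested genes. The scale understates changes of low genes. The fit was tested on simulated data. Coordinates and exon overlaps are from Gencode vM39 on GRCm39, and promoters of the RefSeq table were placed on GRCm39 by exact sequence match. The genes named are the 8 members, Braf, Ifnb1, up to 4 called genes of each list with the largest absolute log2FC and genes used to describe a list's count, and the 3 genes nearest in profile to each of the 3 members with the largest change. Outside that rule, Irf3, Ripk1 and Ripk3, which were not called, were named for their roles, Tnf as the exception of its list, Atrip, Shisa5 and Gm68924 for their overlap with members, Gja1, S100b, Siglech, Cldn5 and Mog as exceptions among cell type markers, and Ifit1, Isg15 and Pld3 for a promoter motif, all after their values were seen. The members and lists were chosen with earlier results of these data known. Alternatives were other pseudocounts, filters and scalings, no variance trend, a replicate block and leaving out each culture.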

Additional observations from a re-analysis of the deposited data

How the results depend on the processing

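Zbp1, Trex1, Sting1 and Enpp1 kept their direction and call under all 14 alternatives, with adjusted p from limma of at most 0.0018, and 2 to 3 members were called lower. With each culture left out in turn, the log2FC of Tbk1 ran from -0.029 (without NT replicate 3) to 0.12, that of Ikbke from -0.56 to -0.24 and that of Ripk3 from -0.20 to 0.10. Adjusted p of Ikbke ran from 1.7e-04 to 0.21 over the alternatives. Cgas kept -0.22 without the variance trend but was then called (adjusted p = 0.033 from limma). Under quantile normalization its log2FC was -0.12 (adjusted p = 0.33 from limma). With each culture left out, adjusted p of Cgas from limma ran from 0.099 to 0.23. The same fits without 1 culture gave 1 to 2 higher DNA sensors, 1 to 2 higher nucleases, 0 to 1 lower adaptors and 0 to 1 lower ZBP1 partners. Quantile normalization gave 2 higher DNA sensors, 0 lower ZBP1 partners and a log2FC of 0.10 for Ripk3, and no filter gave 0 lower ZBP1 partners, the gene lost being Fadd. Copa was lost under quantile normalization (0.12) and without the variance trend. Same-numbered cultures correlated at 0.059 to 0.066 in their deviations from the group means, and differently numbered ones at -0.050 to -0.010. Each culture thus correlated best with its own number. The correlations are small and the labels do not name pairs, so whether the numbers pair the cultures is unresolved. With a replicate block, Ikbke was called at -0.35 (adjusted p = 0.042 from limma) and Irf3 at -0.22 (adjusted p = 0.044 from limma), and there were 2 higher DNA sensors, 2 higher nucleases, 1 lower adaptor and 0 lower ZBP1 partners. The cause of these changes was not tested. Of 280 comparisons of counts, 266 stayed within 1.5 times the reported count. No scaling moved the median log2FC of all genes past 0.029. Low normalized counts, as of Enpp1 and Ripk3, rest on few reads, and 3 cultures a group limit the precision throughout.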
